A study of Homo sapiens with 8 samples.

Results

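The RNA of 9 genes of cholesterol efflux and of the liver X receptor (LXR) pathway was measured in 2 lines of ovarian cancer cells, each cultured with simvastatin or with L-778123. The genes were chosen by name and not by a rule on their values, but earlier results of these data were known at the time. The genes are the receptors NR1H2 and NR1H3, their targets ABCA1, ABCG1, MYLIP and APOE, the lysosomal cholesterol exporters NPC1 and NPC2, and the lipoprotein receptor SCARB1. They were 9 of 22428 genes that had a named probe on the arrays, and all 9 were well above background on all 8 arrays. Of these, 8 genes had 1 probe each. ABCA1 had 2, of which the brighter was used and the dimmer is given beside it.

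The study put 8 RNA samples on 8 one-color Agilent arrays, 2 for each of 4 groups: OVSAHO with simvastatin, OVSAHO with L-778123, KURAMOCHI with simvastatin and KURAMOCHI with L-778123. Both lines are established lines of serous ovarian carcinoma, so that each group is a model of 1 line and not of the tumor type. Simvastatin, a statin, inhibits the mevalonate pathway of cholesterol synthesis, and L-778123 inhibits the enzymes that attach farnesyl and geranylgeranyl groups, products of that pathway, to proteins. Comparing them asks what simvastatin does apart from the block of protein prenylation. Every group carried a drug. Arrays of untreated or vehicle cultures were not analysed here, and the doses and times of these samples are not given in the sources used here. Each difference below is therefore one drug against the other, and whether a gene was raised by one or lowered by the other cannot be told apart.

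Cells that hold excess cholesterol turn part of it into oxysterols, which bind the LXRs. These receptors pair with retinoid X receptors and raise genes that move cholesterol out of the cell, such as the transporters ABCA1 and ABCG1, and MYLIP, an E3 ubiquitin ligase that lowers lipoprotein uptake. Cells short of cholesterol do the opposite through the sterol-sensing factor SREBP2, which raises cholesterol synthesis and uptake. The LXR pathway is best known in macrophages and liver.

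The promoters of ABCA1 and MYLIP are shown because these target genes were both lower with simvastatin in OVSAHO, and that of APOE because it had the largest difference between the lines among the 9 genes. Each run is the 250 bases before the gene start in RefSeq on the GRCh38.p14 assembly, read 5′ to 3′ on the strand of the gene, and capitals mark motif matches.
ABCA1 chr9:104928156-104928405, minus strand: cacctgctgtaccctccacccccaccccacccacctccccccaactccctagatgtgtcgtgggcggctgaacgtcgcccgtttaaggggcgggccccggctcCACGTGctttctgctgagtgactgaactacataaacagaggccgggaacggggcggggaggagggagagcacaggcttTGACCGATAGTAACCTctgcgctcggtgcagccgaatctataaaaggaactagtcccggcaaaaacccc
MYLIP chr6:16128836-16129085, plus strand: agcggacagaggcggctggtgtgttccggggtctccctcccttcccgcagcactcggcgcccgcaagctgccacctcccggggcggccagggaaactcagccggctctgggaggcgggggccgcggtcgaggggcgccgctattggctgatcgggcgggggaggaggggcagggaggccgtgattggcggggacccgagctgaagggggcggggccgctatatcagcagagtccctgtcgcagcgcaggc
APOE, the most upstream of its 3 starts, chr19:44905546-44905795, plus strand: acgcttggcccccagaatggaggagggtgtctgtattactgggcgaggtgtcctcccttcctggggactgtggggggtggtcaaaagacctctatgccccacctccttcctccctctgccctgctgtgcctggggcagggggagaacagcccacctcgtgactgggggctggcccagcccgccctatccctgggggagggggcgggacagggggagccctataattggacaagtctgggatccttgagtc
The search covered 3 motifs on both strands of 300 bases, from 250 before to 50 after the start. They were DR4, the direct repeat of AGGTCA spaced by 4 bases that LXRs bind with their partner, the sterol regulatory element TCACNCCAC, and the E-box CACGTG. In ABCA1 the second block of capitals was the best DR4 match, with 10 of 12 letters on the minus strand, starting 69 bases before the gene start. A match at least that good stood in 2.34% of all 35116 promoter entries. The first block was an exact E-box 147 bases before the start, and 7.26% of the entries held one. MYLIP and APOE matched DR4 at 8 of 12 letters at best, as did 72.5% of all entries or better, and neither held an exact E-box. The sterol regulatory element was exact in none of the 13 entries of the 7 genes matched, against 1.13% of all entries. ABCG1 and SCARB1 were not matched. These matches describe the letters of these windows and were not tested for binding.

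Levels below are log2 processed signals relative to the 75th percentile of the same array, so that 0 is the brightness that 3 in 4 probes stay under and 1 unit is a 2-fold step. They are comparable between arrays for 1 gene and not between genes. Replicates of a group differed by at most 0.27 for any of the 9 genes. A gene passed a comparison at an adjusted p under 0.05 in a limma model over all 33753 probes that were above background, and it was called when it also differed at least 2-fold. The labels do not say that the replicates were separate cultures, so the p-values measure only the spread between these samples, which may be technical.

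**Figure D1:**
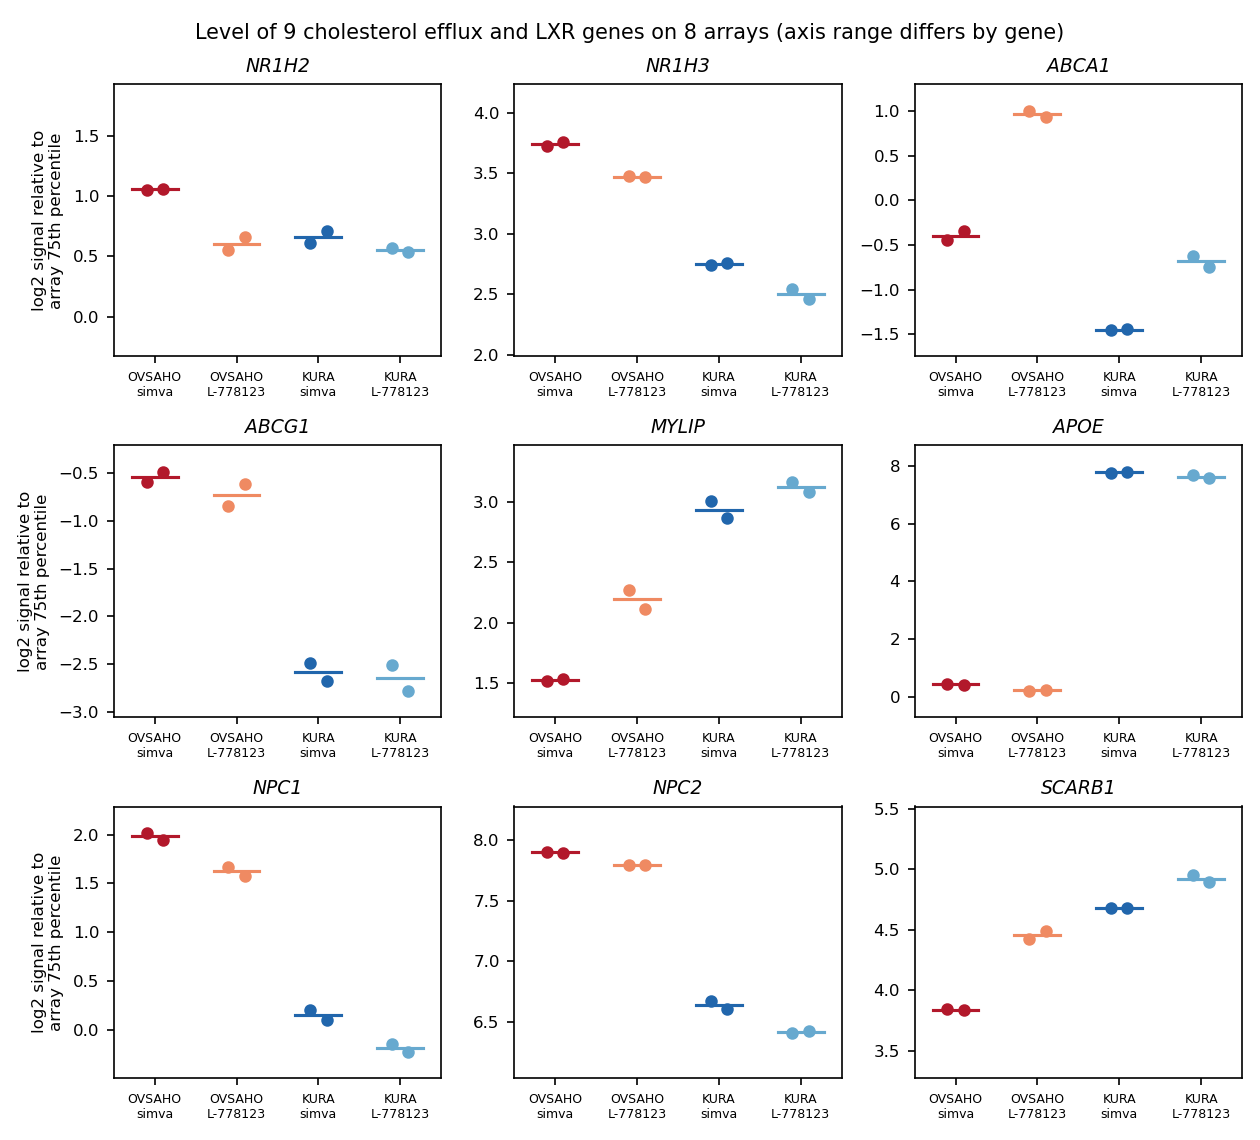
Log2 signal relative to the 75th percentile of the array (vertical axis, range differing by gene) for the 9 genes in the 4 groups (horizontal axis). Each point is 1 array and each line the mean of 2. ABCA1 stood lower with simvastatin in both lines, and APOE stood between 0.20 and 0.47 on the OVSAHO arrays and between 7.57 and 7.80 on the KURAMOCHI arrays.

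ABCA1, the transporter that loads cholesterol and phospholipid onto apolipoprotein A-I, showed the largest drug contrast of the 9 genes in both lines. In OVSAHO its log2 level was -0.44 and -0.34 with simvastatin and 1.01 and 0.93 with L-778123. In KURAMOCHI it was -1.45 and -1.44 with simvastatin and -0.62 and -0.74 with L-778123. The 2 drugs did not overlap in either line, and the simvastatin arrays were the low ones in both. ABCA1 was 2.57-fold lower with simvastatin in OVSAHO (log2 -1.36 ± 0.07 SE, 95% interval -1.54 to -1.18, adjusted p = 9.24e-05) and 1.70-fold lower in KURAMOCHI (-0.76 ± 0.07, -0.94 to -0.58, adjusted p = 0.00137). The contrast was larger in OVSAHO by 0.60 on the log2 scale (95% interval 0.34 to 0.85, adjusted p = 0.0126). The 4 groups stood in the order OVSAHO L-778123, OVSAHO simvastatin, KURAMOCHI L-778123 and KURAMOCHI simvastatin, and each neighbouring pair passed. In bulk RNA, fewer cells with a transcript and less of it per cell cannot be told apart.

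The dimmer ABCA1 probe gave levels of -3.36 and -3.23 with simvastatin and -2.44 and -2.30 with L-778123 in OVSAHO, and was above background on these 4 arrays. Its OVSAHO contrast was -0.92 (adjusted p = 0.0275). In KURAMOCHI it was above background on 1 of 4 arrays, with -4.46 and -5.25 against -4.11 and -4.00, where simvastatin was again the lower (at least 1.28-fold), without a pass (adjusted p = 0.0596). With the median over the 2 probes, judged by the higher p of the pair, ABCA1 had no pass in KURAMOCHI (-0.78) or for the difference between the lines (-0.36). The brighter and the dimmer probe had the same direction, but the dimmer one showed no difference between the lines that passed (-0.12, 95% interval -0.997 to 0.758, adjusted p = 0.838). The difference between the lines at the brighter probe also missed the threshold when dim probes were kept in the model (adjusted p = 0.0527).

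ABCG1, the partner transporter that passes cholesterol to high-density lipoprotein, did not follow ABCA1. Its levels were -0.60 and -0.48 with simvastatin and -0.84 and -0.62 with L-778123 in OVSAHO. In KURAMOCHI they were -2.49 and -2.68 with simvastatin and -2.51 and -2.78 with L-778123. The drugs overlapped in KURAMOCHI and stood apart, but closely, in OVSAHO. The drug contrast was 0.19 in OVSAHO (95% interval -0.14 to 0.52, adjusted p = 0.284) and 0.06 in KURAMOCHI (-0.27 to 0.39, adjusted p = 0.751). Neither passed, and the intervals exclude a fall of the size seen for ABCA1 in the same line. The KURAMOCHI sign turned to -0.03 without simvastatin replicate 1 and to -0.07 without L-778123 replicate 2.

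MYLIP was lower with simvastatin in OVSAHO. Its levels there were 1.52 and 1.54 with simvastatin against 2.28 and 2.11 with L-778123, which is 1.59-fold lower (log2 -0.67 ± 0.08 SE, adjusted p = 0.00177). In KURAMOCHI they were 3.01 and 2.86 against 3.17 and 3.08, which did not overlap but did not pass (-0.19, 95% interval -0.40 to 0.02, adjusted p = 0.149). With normexp background correction the KURAMOCHI contrast passed (adjusted p = 0.0444). The difference between the lines was -0.48 (adjusted p = 0.0392), and it missed the threshold when any array other than OVSAHO L-778123 replicate 2 was left out (adjusted p 0.0545 to 0.108), when dim probes were kept (0.121) and in the two-way analysis of variance that the study's methods use (0.0651).

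APOE, the apolipoprotein that carries cholesterol away from cells and is a ligand of lipoprotein receptors, differed little between the drugs. In OVSAHO its levels were 0.47 and 0.43 with simvastatin and 0.20 and 0.26 with L-778123. In KURAMOCHI they were 7.74 and 7.80 with simvastatin and 7.69 and 7.57 with L-778123. Simvastatin was the higher in both lines without overlap, by 0.22 in OVSAHO (adjusted p = 0.0386) and 0.14 in KURAMOCHI (95% interval -0.02 to 0.31, adjusted p = 0.157). The OVSAHO pass did not hold when any OVSAHO array or either KURAMOCHI simvastatin array was left out (adjusted p 0.0609 to 0.139), when only the OVSAHO arrays were fitted (0.0703), when dim probes were kept (0.132) or in the methods' analysis of variance (0.121).

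Of the receptors, NR1H3, which encodes LXR alpha, was slightly higher with simvastatin in both lines. Its levels were 3.72 and 3.76 against 3.48 and 3.47 in OVSAHO (1.21-fold, adjusted p = 0.0108), and 2.74 and 2.76 against 2.54 and 2.46 in KURAMOCHI (1.19-fold, adjusted p = 0.0217). The drugs overlapped in neither line. NR1H2, which encodes the widely expressed LXR beta, was higher in OVSAHO, with 1.05 and 1.06 against 0.55 and 0.66 (1.37-fold, adjusted p = 0.00316). In KURAMOCHI its levels were 0.61 and 0.71 against 0.57 and 0.54, a difference of 0.10 (95% interval -0.06 to 0.27) that did not pass (adjusted p = 0.287). NR1H2 in OVSAHO with simvastatin stood above the other 3 groups, whose neighbours did not differ beyond their spread. The difference of its contrast between the lines was 0.35 and just missed the threshold (adjusted p = 0.0506), while 4 of 9 other settings put it past (adjusted p 0.0256 to 0.0422). The NR1H3 pass was lost in OVSAHO without simvastatin replicate 2 (0.0547), and in KURAMOCHI without either simvastatin replicate or L-778123 replicate 2 (0.0817 to 0.101). It was also lost in both lines with dim probes kept (0.0553 and 0.101), and in KURAMOCHI with only its own arrays fitted (0.0648).

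NPC1 and NPC2, the pair of proteins that carry cholesterol out of lysosomes, were a little higher with simvastatin. NPC1 levels, each the mean of 10 spots, were 2.02 and 1.95 against 1.67 and 1.58 in OVSAHO, and 0.20 and 0.10 against -0.15 and -0.23 in KURAMOCHI. Without overlap in either line, NPC1 was 1.29-fold higher in OVSAHO (adjusted p = 0.00872) and 1.27-fold higher in KURAMOCHI (adjusted p = 0.0177). Its contrasts in the 2 lines differed by 0.02 (95% interval -0.23 to 0.27). NPC2 levels were 7.91 and 7.90 against 7.80 and 7.80 in OVSAHO, and 6.67 and 6.60 against 6.40 and 6.42 in KURAMOCHI. NPC2 passed in KURAMOCHI (1.17-fold, adjusted p = 0.0267) and not in OVSAHO (0.11, 95% interval -0.03 to 0.24, adjusted p = 0.152), where quantile normalization and the authors' table turned its sign to -0.03 and -0.04. The NPC2 contrast differed between the lines by -0.12 without a pass (adjusted p = 0.318), but by -0.39 with a pass under quantile normalization (0.0330) and with the authors' table (0.0301). The methods' analysis of variance lost the NPC1 pass in OVSAHO (0.0507) and in KURAMOCHI (0.0917). In KURAMOCHI the NPC1 pass was lost without simvastatin replicate 1 (0.0878) or L-778123 replicate 2 (0.0853), and that of NPC2 without any 1 of the 4 KURAMOCHI arrays (0.0621 to 0.126). Keeping dim probes lost both there (0.0692 for NPC1 and 0.125 for NPC2), and fitting only the KURAMOCHI arrays lost that of NPC2 (0.0751).

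SCARB1, the receptor that exchanges cholesterol with high-density lipoprotein, was lower with simvastatin in both lines. Its levels were 3.84 and 3.84 against 4.42 and 4.49 in OVSAHO, and 4.68 and 4.68 against 4.95 and 4.89 in KURAMOCHI. The drugs did not overlap, and SCARB1 was 1.54-fold lower in OVSAHO (log2 -0.62 ± 0.06 SE, adjusted p = 0.000531) and 1.18-fold lower in KURAMOCHI (-0.24 ± 0.06, adjusted p = 0.0240). The KURAMOCHI pass was lost without any 1 of the 4 KURAMOCHI arrays (0.0629 to 0.107), with quantile normalization (0.0634), with the authors' table (0.0661), with only the KURAMOCHI arrays fitted (0.0615) and with dim probes kept (0.110). The contrast was larger in OVSAHO by 0.38 (adjusted p = 0.0238), which did not pass when any array other than OVSAHO L-778123 replicate 1 was left out (0.0526 to 0.0743) or when dim probes were kept (0.110).

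**Figure D2:**
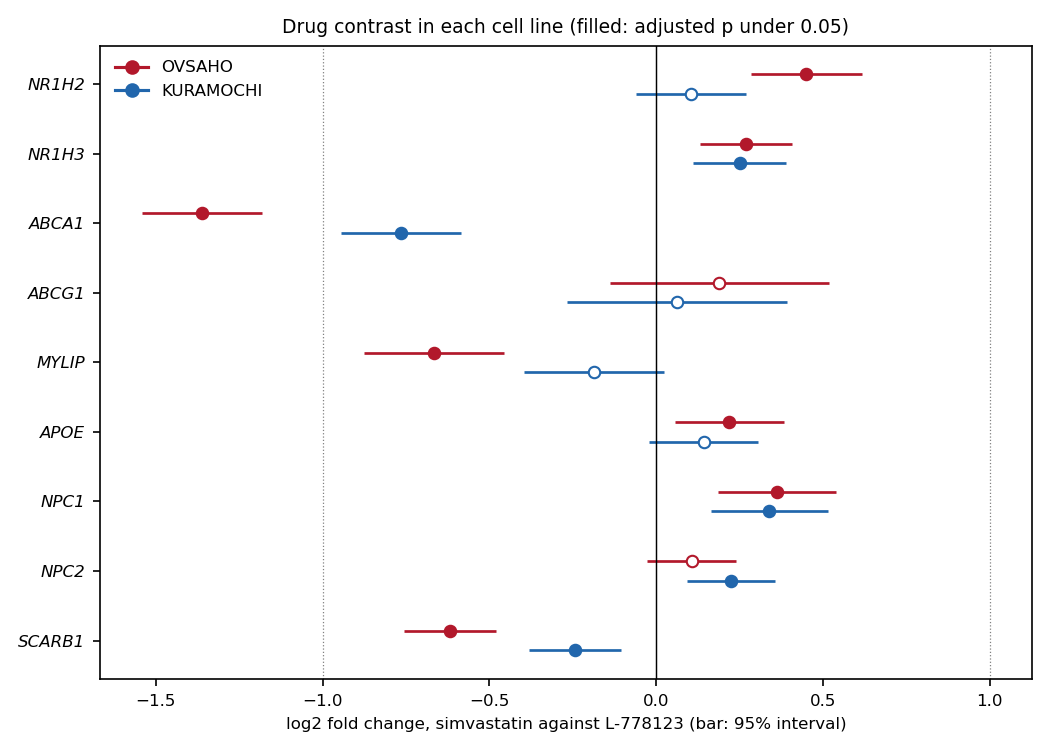
Log2 fold change of simvastatin against L-778123 (horizontal axis) for the 9 genes (vertical axis) in OVSAHO (red) and KURAMOCHI (blue), with 95% intervals as bars and filled points at an adjusted p under 0.05. ABCA1 lay farthest from 0 in both lines, at -1.36 and -0.76, and dotted lines mark a 2-fold difference.

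Counted together, 4 of 9 genes were higher with simvastatin in OVSAHO (NR1H2, NR1H3, APOE and NPC1) and 3 were lower (ABCA1, MYLIP and SCARB1). Over all probes tested, 23% were higher and 25.1% lower. At 2-fold, 1 of 9 was called, ABCA1, against 11% of all probes. In KURAMOCHI 3 genes were higher (NR1H3, NPC1 and NPC2), 2 were lower (ABCA1 and SCARB1) and 0 were called at 2-fold in limma, against 14%, 17.3% and 5.6% of all probes. Without adjustment 0 were 2-fold in KURAMOCHI as well. The contrast differed between the lines for 3 genes in the lower direction (ABCA1, MYLIP and SCARB1), 0 in the higher direction and 0 at 2-fold, against 11.7%, 11.2% and 7.1%. At an unadjusted p under 0.05, 1 gene, NR1H2, had the higher contrast in OVSAHO. The drugs did not overlap for 9 of 9 genes in OVSAHO and 8 of 9 in KURAMOCHI, where 77.1% and 69.9% of all probes did not overlap either. With so many probes passing in each line, 9 genes are too few to set their shares apart from these, and no test of the list was made.

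Between the cell lines, all 9 genes passed when averaged over the drugs. OVSAHO had the higher level of 6 (ABCA1, ABCG1, NR1H2, NR1H3, NPC1 and NPC2) and the lower level of 3 (MYLIP, APOE and SCARB1), against 40.2% and 37.5% of all probes, and 6 of 9 differed at least 2-fold, against 33.7%. APOE was 164.1-fold lower in OVSAHO (log2 -7.36 ± 0.05 SE, adjusted p = 4.24e-08), 159.8-fold with simvastatin and 168.5-fold with L-778123. ABCG1 was 3.95-fold higher in OVSAHO, NPC1 3.54-fold, ABCA1 2.55-fold and NPC2 2.50-fold (adjusted p from 8.39e-07 to 6.39e-06), while MYLIP was 2.25-fold lower (8.98e-06). NR1H3 was 1.98-fold higher and SCARB1 1.57-fold lower in OVSAHO. The lines overlapped only for NR1H2, with a 1.17-fold difference (adjusted p = 0.00582) that was 1.32-fold with simvastatin (adjusted p = 0.00251) and 1.04-fold with L-778123 (adjusted p = 0.537). The other 8 did not overlap, as for 57.6% of all probes. In every alternative run, all 9 genes kept the direction and the pass of this contrast.

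The genes beside APOE on chromosome 19 were read for the same contrast, after the value of APOE was seen. APOC1, its next neighbour and a further LXR target encoding an apolipoprotein, was lower in OVSAHO by 5.63 on the log2 scale, with means of -4.12 against 1.51. NECTIN2, BCAM, TOMM40, CLPTM1 and RELB were lower by 2.97, 1.51, 1.11, 1.36 and 0.53. APOC4, also a listed LXR target, did not pass (-0.11, adjusted p = 0.583), and APOC2 and CBLC were above background on no array. The measured neighbours that passed were all lower in OVSAHO, each by less than APOE itself. Of all probes, 37.5% were lower in OVSAHO, 40.2% were higher and 33.7% differed at least 2-fold. No test of the region was made.

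**Figure D3:**
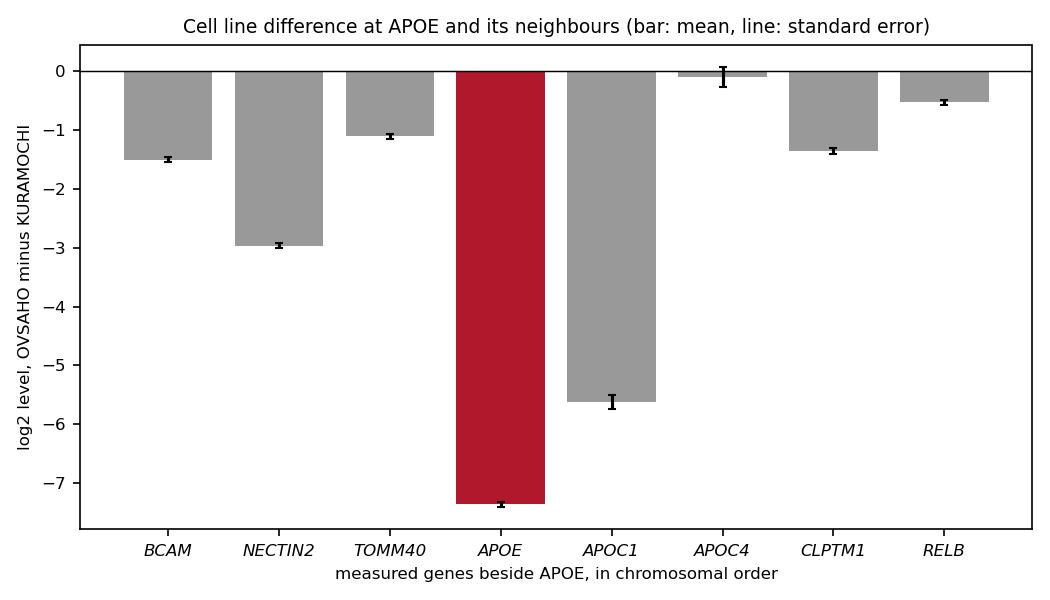
Log2 level in OVSAHO minus KURAMOCHI, averaged over both drugs (vertical axis), for APOE (red) and the measured genes beside it (grey) in chromosomal order (horizontal axis). Bars start at 0 and lines show the standard error. APOE and APOC1 had the largest differences, -7.36 and -5.63, and APOC4 lay at -0.11.

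Other known LXR targets had no common direction. Of 16 listed, 12 were tested, and in OVSAHO 3 were higher with simvastatin, 4 were lower and 5 did not pass (median log2 0.05, against 0.014 over all probes). Among all probes 23% were higher and 25.1% lower. SREBF1, which encodes the lipogenic factor SREBP1, was lower by 1.104 in OVSAHO, with 3.71 and 3.76 against 4.78 and 4.90 (adjusted p = 0.000161). The median over its probes was only -0.49, and the highest adjusted p among them was 0.279. LPL, the lipoprotein lipase, was lower by 1.15 (adjusted p = 0.000237) and SCD, a fatty acid desaturase, by 0.56 (0.000835). SMPDL3A, a phosphodiesterase, was higher by 1.31 (0.00183). LPL was dim, with -4.34 and -4.25 against -3.12 and -3.17. Under other processing the LPL contrast shrank to as little as -0.25 and that of SMPDL3A to 0.71, though both kept their pass.
In KURAMOCHI 5 of the 12 were higher, 2 lower and 5 did not pass (median 0.25, against 0.001). The shares of all probes there were 14% higher and 17.3% lower. SCD was higher there by 1.43 (adjusted p = 0.000158), FASN, the fatty acid synthase, by 0.91 (0.000901), and APOC1 by 0.86 (0.0141). In the methods' analysis of variance APOC1 did not pass there (adjusted p = 0.145). The APOC1 pass was lost without any 1 of the 4 KURAMOCHI arrays (0.0552 to 0.0655). The 2 lower genes were SREBF1 (-0.27, adjusted p = 0.0349) and LPL, which was above background on no KURAMOCHI array and is given no fold. SCD and FASN are also raised by SREBP factors. SCD had opposite signs in the 2 lines, and its difference between them was -1.99 (adjusted p = 0.000261).

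The partners and cofactors of the LXRs were higher with simvastatin where they passed, in 6 of 11 in OVSAHO and 3 of 11 in KURAMOCHI (medians 0.23 and 0.14). Of all probes, 23% and 14% were higher. In limma 0 of the 11 were lower in either line, against 25.1% and 17.3% of all probes. At an unadjusted p under 0.05, 1 was lower, GPS2 in KURAMOCHI. RXRA, the retinoid X receptor alpha, was higher by 0.79 in OVSAHO (3.70 and 3.60 against 2.83 and 2.88, adjusted p = 0.000333) and by 1.08 in KURAMOCHI (4.12 and 4.12 against 3.06 and 3.01, adjusted p = 0.000338). The coactivator NCOA3 was higher by 0.72 in OVSAHO (0.000555). TBL1X, part of a corepressor complex, was higher there by 0.80 (0.000752). In KURAMOCHI TBL1X was higher by 0.34 (0.0267), a pass that was lost without any 1 of the 4 KURAMOCHI arrays (contrast 0.27 to 0.40). The TBL1X pass there was also lost in the methods' analysis of variance (adjusted p = 0.150) and with dim probes kept (0.0888).

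Of 7 enzymes that make or inactivate oxysterols, 4 were tested, and all 4 were higher with simvastatin in OVSAHO (median 1.19). Among all probes, 23% were higher in OVSAHO and 14% in KURAMOCHI. CYP27A1, which makes an oxysterol ligand of the LXRs, had levels of -1.87 and -1.73 against -3.92 and -3.56 there, higher by 1.94 (adjusted p = 0.000688). SULT2B1, a sulfotransferase that inactivates oxysterols, was above background with simvastatin in OVSAHO only, at least 2.82-fold higher (adjusted p = 0.00189). It was tested only through that group, where it was high, so its place in the count and the median is no support. CYP11A1, which cleaves the cholesterol side chain, was higher by 0.47 (0.00295) and HSD3B7, of bile acid synthesis, by 0.28 (0.0242). The HSD3B7 pass was lost without either OVSAHO simvastatin replicate or L-778123 replicate 1 (0.0769 to 0.101). In KURAMOCHI 2 of 4 passed (median 0.33), CYP27A1 by 0.74 (0.0330) and CYP11A1 by 0.30 (0.0232), and both lost their pass without simvastatin replicate 2 or either L-778123 replicate, CYP27A1 also without either OVSAHO simvastatin replicate (adjusted p 0.0553 to 0.123). In the methods' analysis of variance CYP27A1 and CYP11A1 did not pass in KURAMOCHI (adjusted p 0.261 and 0.102), nor HSD3B7 in OVSAHO (0.112). With dim probes kept, these contrasts did not pass either. CH25H, CYP46A1 and CYP7B1 were too dim to be tested.

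The other transporters of the ABCA and ABCG subfamilies moved both ways in OVSAHO, with 4 of 10 tested higher, 4 lower and 2 not passing (median 0.02). Among all probes 23% were higher and 25.1% lower. ABCA3, a lipid transporter of lamellar bodies, was higher by 1.44 (adjusted p = 5.77e-05). ABCA4, which carries retinoids, was lower by 0.94 (0.000287), as was ABCA10 by 1.00 (0.00828). ABCA10 was dim, with -3.88 and -4.36 against -3.15 and -3.08. Its contrast shrank to as little as -0.22 under other processing, and it did not pass in the methods' analysis of variance (adjusted p = 0.101). ABCA12, 1 of the 4 higher, passed with both drugs below background and is given no fold. Its place in the count and the median is no support. In KURAMOCHI 4 were higher, 1 lower and 5 did not pass (median 0.23), where 14% of all probes were higher and 17.3% lower. ABCA12, a transporter of skin lipids, was higher by 0.90 (0.0171) and ABCA2 by 0.76 (0.00174). ABCG4, which like ABCG1 exports sterols, was higher by 0.69 (0.00331) and ABCA3 by 0.58 (0.00220). In the methods' analysis of variance the ABCA12 contrast in KURAMOCHI did not pass (adjusted p = 0.169). The ABCA12 pass was lost without replicate 1 of either drug in KURAMOCHI (0.0785 to 0.0822).

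Genes of sterol storage and transfer were higher with simvastatin in 9 of 16 in OVSAHO and 8 of 16 in KURAMOCHI, and lower in 1 and 2 (medians 0.28 and 0.27). The shares of all probes were 23% and 14% higher, and 25.1% and 17.3% lower. LIPA, the lysosomal lipase that frees the cholesterol NPC2 and NPC1 then export, was higher by 0.53 (adjusted p = 0.00239) and 0.57 (0.00365). STARD4, a sterol carrier that SREBP2 also raises, was higher by 0.73 (0.00301) and 1.72 (0.000398), and STARD3, a lysosomal sterol carrier, by 0.66 in OVSAHO (0.00172). SCARB2, a lysosomal membrane protein related to SCARB1, was higher by 0.75 in KURAMOCHI (0.000901). TMEM97, a protein that binds NPC1, was lower in OVSAHO by 0.77 (0.000378). SOAT2, which esterifies cholesterol, was lower in KURAMOCHI by 0.94 (0.00358), at dim levels of -4.05 and -3.92 against -3.09 and -3.01. The SOAT2 contrast shrank to as little as -0.25 under other processing, and it just missed the threshold in the methods' analysis of variance (adjusted p = 0.0520).
For comparison, the genes that SREBP2 raises were higher in 9 of 12 in OVSAHO (median 0.47) and 11 of 12 in KURAMOCHI (median 1.27). Of all probes, 23% and 14% were higher. In limma 0 of the 12 were lower in either line, against 25.1% and 17.3% of all probes. At an unadjusted p under 0.05, 0 of the 12 were lower as well. INSIG1, which retains SREBP in the endoplasmic reticulum, was higher by 1.02 in OVSAHO (adjusted p = 0.000257) and 2.66 in KURAMOCHI (0.000106). In KURAMOCHI HMGCS1, an enzyme of the mevalonate pathway, was higher by 1.57 (0.000147), and in OVSAHO LSS and SC5D, enzymes of sterol synthesis, by 1.09 (0.000276) and 0.85 (0.00101). The INSIG1 contrast was larger in KURAMOCHI (difference -1.63, adjusted p = 0.000734), and that of ABCA1 was larger in OVSAHO, as given above.

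**Figure D4:**
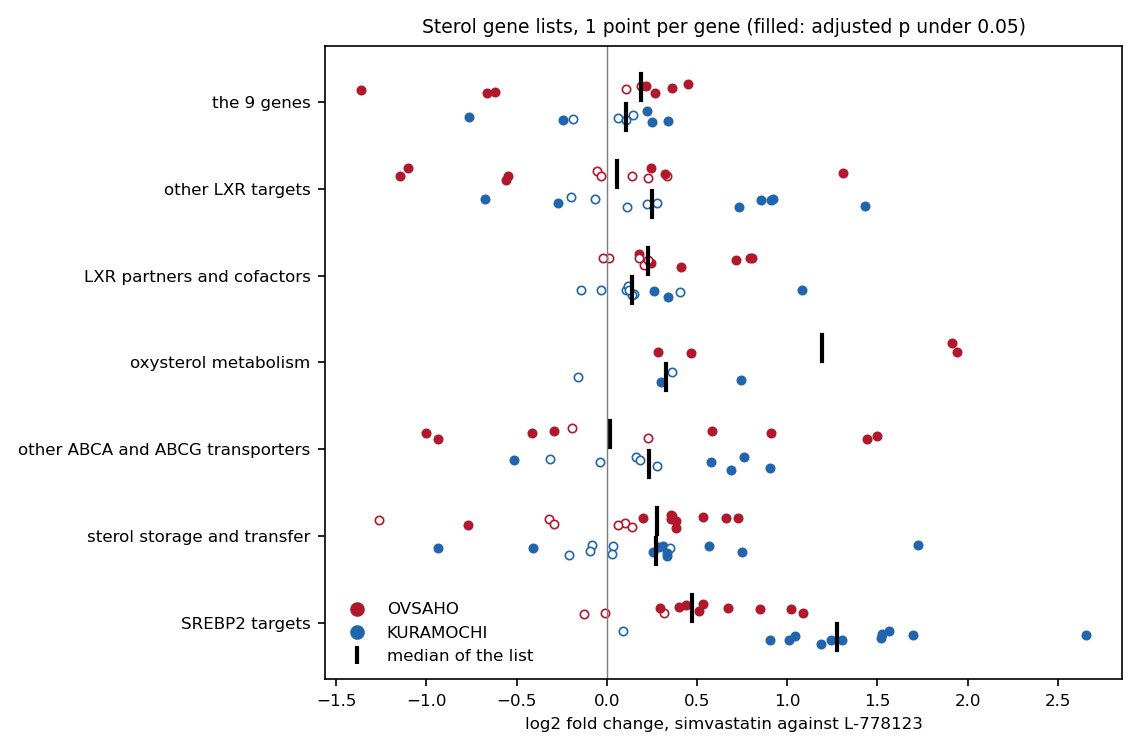
Log2 fold change of simvastatin against L-778123 (horizontal axis) for each tested gene of the 9 genes examined and of 6 further sterol gene lists (vertical axis), in OVSAHO (red) and KURAMOCHI (blue). Filled points had an adjusted p under 0.05, black marks are medians, and genes below background, such as ABCA12 in OVSAHO, stand at their measured values. The SREBP2 targets had medians of 0.47 and 1.27, and other LXR targets lay on both sides of 0.

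The genes most like each of the 9 were sought by Pearson correlation of the level over the 8 arrays among 14477 genes above background on all of them. The arrays are 4 pairs of replicates, so that many genes reach a high value. For ABCA1 they were MPC1 (0.9996), CENPQ (0.9985), CENPH (0.9982), MRPL22 and GTF3C2 (0.9979 each). MPC1, a subunit of the mitochondrial pyruvate carrier, had levels of 4.66 and 4.73 against 5.38 and 5.34 in OVSAHO and 4.21 and 4.17 against 4.59 and 4.54 in KURAMOCHI, in the same order of groups as ABCA1. The nearest genes were EFEMP2 for APOE (0.9999), METTL23 for NPC2 (0.9997), THEMIS2 for NR1H3 (0.9992), ZNF32 for NPC1 (0.9991), EPHA2 for SCARB1 (0.9989), SLC25A12 for MYLIP (0.9985), FBXW9 for ABCG1 (0.9980) and CNPPD1 for NR1H2 (0.9910). The next ones were ETFRF1 and ABCC3 for APOE, DYRK4 and NDRG3 for NPC2, HEIH and ARRDC3 for NR1H3, and SFSWAP and IGBP1 for NPC1. They were BCL2L12 and ATAD3B for SCARB1, E2F5 and HS6ST2 for MYLIP, OXLD1 and RPL17 for ABCG1, and LINC01238 and TFAP2C for NR1H2, and the r of these 16 ranged from 0.9884 to 0.9997. None of the 9 genes was among these few nearest genes of another, which says little about their likeness. Between the 9, r ran from -0.9895 (ABCG1 with APOE) to 0.9959 (NR1H3 with NPC1).

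On each array 51.8% to 57.5% of 58162 probes were well above background, the 75th percentile of the signal was 324 to 437, and 0 spots were saturated. The 8 arrays shared 1 slide, on which every group had its own positions, and an effect of position cannot be told apart from that of the group. Of 10 markers of serous ovarian carcinoma, 10 were above background on all arrays. Their levels differed between the lines, with 6 higher in OVSAHO, 3 lower and 1 not passing, against 40.2% higher and 37.5% lower of all probes. Of 8 macrophage and leukocyte markers 6 had a probe. PTPRC, CD14 and TYROBP were above background on all arrays, ITGAM on some, and CSF1R and CD163 on no array. The summed level of the list ranged from -0.59 to -0.45 over the OVSAHO arrays and from -0.43 to -0.23 over the KURAMOCHI arrays. In OVSAHO the summed level of 6 hepatocyte markers was 5.28 to 5.30 with simvastatin and 3.53 to 3.67 with L-778123. Nearly all of that sum was APOA1, the apolipoprotein that accepts cholesterol from ABCA1. Its own levels were 5.26 and 5.28 against 3.48 and 3.61, higher by 1.73 (adjusted p = 4.86e-05). Of the 4 hepatocyte markers tested, 2 passed in OVSAHO, both higher, where 23% of all probes were higher. Besides APOA1 this was CYP3A4, a drug-metabolizing enzyme, which was above background there on both simvastatin arrays and neither L-778123 array (-3.83 and -4.04 against -5.88 and -5.27, at least 1.98-fold higher, adjusted p = 0.0292). CYP3A4 was tested only through that simvastatin group, where it was high, so its direction in this count is no support. Albumin (0.04) and SERPINA1 (0.18) did not pass, and TTR and APOB were above background on no array. In KURAMOCHI the summed level of the hepatocyte markers was 4.46 to 4.53 with simvastatin and 4.79 to 4.86 with L-778123. The part of these values in the results was not tested.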

How the data were processed

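Cy3-labeled RNA of 8 samples was read on one-color Agilent human arrays of the SurePrint G3 design (version 3). The authors extracted the images with Feature Extraction 11.5.1.1 and deposited, per spot, a processed intensity that was corrected for background and not normalized between arrays, with the median spot and background intensity. They also deposited a table of processed intensity on a linear scale. Its 75th percentile was 383 to 384 and its log2 median 4.72 to 4.73 on every array, as quantile normalization would give, though the methods state 75th percentile scaling. It correlated with the scanner values at r of at least 0.9999, and as an alternative it is close to quantile normalization and not independent of it.

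Control spots and 58 to 99 outlier spots per array were left out and spots of a probe were averaged. Each array's 75th percentile was then subtracted on the log2 scale. Of 58162 probes, 33753 were tested, those that in 1 or more groups exceeded background on both arrays. Symbols came from RefSeq accessions of GRCh38.p14, while the array design uses hg19, and no coordinate was carried between them. The model had 1 mean per group (limma 3.58.1, lmFit with eBayes, in R 4.3.3), p-values were adjusted by Benjamini-Hochberg over all probes tested, and the script was tested on simulated data. Where both arrays of a group missed background, a bound was set from each array's dimmest signal that exceeded it.

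All 9 genes are named, with up to 4 genes per further list and line of the largest difference among those that passed, and the 3 genes most like each of the 9 (5 for ABCA1). APOA1, the genes beside APOE and values of a listed gene in the other line were added after values were seen. The members and lists were chosen with earlier results of these data known. No list was given a test. Some genes of the lists are counted but not reported here by name. Alternatives were other filters, normexp with an offset of 50 on the median spot signal, quantile normalization, a 75th percentile over bright probes only, values of the authors' table, only the arrays compared, a replicate block, the methods' own test (two-way analysis of variance, Tukey), the median over a gene's probes with their highest adjusted p, and each array left out. Python 3.11.15 and matplotlib 3.10.9 made the figures.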

Additional observations from a re-analysis of the deposited data

Results flagged for a closer look

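For 3 genes the test of the difference itself showed unlike drug contrasts in the 2 cell lines. The OVSAHO contrast of simvastatin with L-778123, minus that of KURAMOCHI, was -0.5972 on the log2 scale for ABCA1 (SE 0.10, adjusted p = 0.0126), -0.4787 for MYLIP (SE 0.12, adjusted p = 0.0392) and -0.3752 for SCARB1 (SE 0.08, adjusted p = 0.0238). All 3 were lower with simvastatin by more in OVSAHO. None of the 3 passed when dim probes were kept (adjusted p 0.0527 to 0.121), ABCA1 did not at its dimmer probe (0.838), and MYLIP did not in the methods' analysis of variance (0.0651). With 2 arrays in each group, no array was tested as an outlier.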

How the results depend on the processing

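All 9 genes kept their direction and their pass in the contrast between the cell lines, and ABCA1, MYLIP and SCARB1 in the OVSAHO drug contrast, under every alternative run. Keeping dim probes in the model left 2 genes higher in OVSAHO, 0 higher and 1 lower in KURAMOCHI, and 0 with a lower contrast in OVSAHO than in KURAMOCHI. The methods' two-way analysis of variance left 2 higher in OVSAHO, where APOE and NPC1 missed the threshold, and lost NPC1 in KURAMOCHI and the MYLIP difference between the lines. Fitting only the arrays compared left 1 higher and 1 lower in KURAMOCHI, and quantile normalization and the authors' table, which share most of their construction, left 1 lower there, as did the median over probes, which lost ABCA1 (adjusted p of the dimmer probe 0.0596). A filter on all 8 arrays, normexp, quantile normalization and the authors' table each gave 1 gene, NR1H2, with a higher contrast in OVSAHO, and under the last 2 NPC2 joined the genes with a lower one, which numbered 4. With each array left out in turn, the genes higher in OVSAHO numbered 2 to 4, those higher in KURAMOCHI 0 to 3, those lower in KURAMOCHI 1 to 2 and those with a lower contrast in OVSAHO 1 to 2. Leaving out an array leaves its group with 1, which is assumed to vary like the others. Signs turned for small differences that had not passed. Without 1 array these were ABCG1 in KURAMOCHI (-0.0338 and -0.0738, range to 0.1987) and the difference between the lines of ABCG1 (-0.0094, range to 0.2631), NPC1 (-0.0129, -0.0244, -0.027 and -0.0169, range to 0.0726) and NR1H3 (-0.0002 and -0.0215, range to 0.0588). NPC2 in OVSAHO turned to -0.0334 with quantile normalization and -0.0367 with the authors' table. The cause was not tested. Of 630 values of the 9 genes under alternatives, 556 kept direction and side of the threshold, 56 lost and 7 gained a pass.

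Replicate numbers did not pair the samples, since the deviations of same-numbered arrays correlated at 0.0008 to 0.0555. With the replicate number as a block the genes higher in OVSAHO numbered 3 in place of 4, since APOE missed the threshold (adjusted p = 0.0646), and the block changed no other count. ABCA1 kept its pass under the block in OVSAHO (adjusted p = 0.000562) and KURAMOCHI (0.00480). The 2 arrays per group limit the precision of every value, and probes near background, such as the dimmer probe of ABCA1, are the least certain.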
